A study of Neogale vison with 6 samples.

Results

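Deoxynucleotides for DNA and pyrimidines for RNA are made by a short series of enzymes, and the transcripts of 9 such enzymes were followed in mink lung Mv1Lu cells after cholesterol depletion (CD). They comprise enzymes linked to S phase (TYMS, TK1, RRM1, RRM2 and DUT) and enzymes linked to growth (CAD, DHODH, UMPS and CTPS1), chosen by symbol from a table of 24526 genes. The table holds 5 of the 9 symbols, RRM1, RRM2, DUT, CAD and UMPS. DHODH and CTPS1 stand in it under the symbols PYRD and PYRG1, where the descriptions in the same rows name dihydroorotate dehydrogenase and CTP synthase 1, and they are given here under their usual names and counted apart. TYMS and TK1 were found neither by symbol nor by description and were not analysed here.

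The pyrimidine ring is built de novo from glutamine, bicarbonate and aspartate. CAD, a single polypeptide in animals, carries out the opening steps of this route, DHODH oxidizes dihydroorotate at the inner mitochondrial membrane, and UMPS makes UMP from orotate. CTPS1 converts UTP to CTP. Ribonucleotide reductase, an assembly of the large subunit RRM1 and the small subunit RRM2, reduces ribonucleotides to deoxyribonucleotides, and DUT hydrolyzes dUTP, which keeps uracil out of DNA and supplies the substrate of thymidylate synthase (TYMS). RRM2 and TK1 are known for expression that follows the S phase of the cell cycle, whereas CAD is known as a target of MYC and of signaling by growth factors.

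Mv1Lu is an established epithelial line from mink lung, and all 6 libraries came from it. The control group held 3 libraries of untreated cells. The CD group held 3 libraries of cells kept for 16 h with 50 μM of the statin lovastatin, an inhibitor of HMG-CoA reductase, and 50 μM mevalonate in medium containing 10% lipoprotein-deficient serum (LPDS). Serum, statin and mevalonate changed together, so that their parts cannot be told apart, and the labels do not say whether the replicates were separate cultures, so that the p-values measure only the spread between these libraries. The libraries held 13473820 to 18633764 reads on genes, and the rows that name no gene held 29.3% to 47.2% of the reads in control and 31.1% to 41.4% in CD libraries. The biological coefficient of variation, the relative spread between libraries of a group, was 0.0838 in control and 0.214 in CD. Of the markers of epithelial cells, KRT19 was high (mean of 935 CPM in the control group and 458 CPM in the CD group), while EPCAM and CDH1 had 7 and 8 reads over the control libraries and 2 and 18 over the CD libraries. Of 5 markers of lung epithelium, the surfactant genes SFTPC and SFTPB were at 0 in all 6 libraries, and NKX2-1 (23 and 9 reads over the control and CD libraries), SCGB1A1 (64 and 28, lower in CD, FDR 0.0125, edgeR) and AGER (a mean of 2.21 and 1.83 CPM, not called) were low. The summed level of 5 fibroblast markers was 309 to 387 CPM in control and 181 to 232 CPM in CD libraries, that of 4 endothelial markers at most 0.220 and 1.96 CPM, and that of the 3 immune markers found 5.56 to 6.66 and 21.1 to 25.9 CPM, and their part in the results was not tested.

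Levels are given in CPM, a gene's reads relative to all reads on genes of the same library with a TMM scaling factor, a unit that compares a gene between libraries but not with another gene, since the counts grow with transcript length. A difference was called at a false discovery rate (FDR, Benjamini-Hochberg over the 12148 genes tested) under 0.05 by edgeR's quasi-likelihood test. Log2 fold changes of CD against control are given ± their standard error (SE). Fewer cells in S phase and less RNA per cell cannot be told apart in these bulk libraries. By this rule 47.7% of all tested genes were called, 24.8% higher and 22.9% lower in CD, and the median log2 fold change of all of them was 0.06. All 5 members with a symbol were tested and called, 4 lower and 1 higher. With DHODH and CTPS1 the numbers were 6 lower and 1 higher of 7. For all 7 the CD and control libraries did not overlap, which held for 58.0% of all tested genes, 28.6% with CD lower and 29.5% with CD higher. Each of the 7 had a two-sided p of 0.1 in the exact permutation test over libraries, the smallest that 3 libraries against 3 allow.

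**Figure D1:**
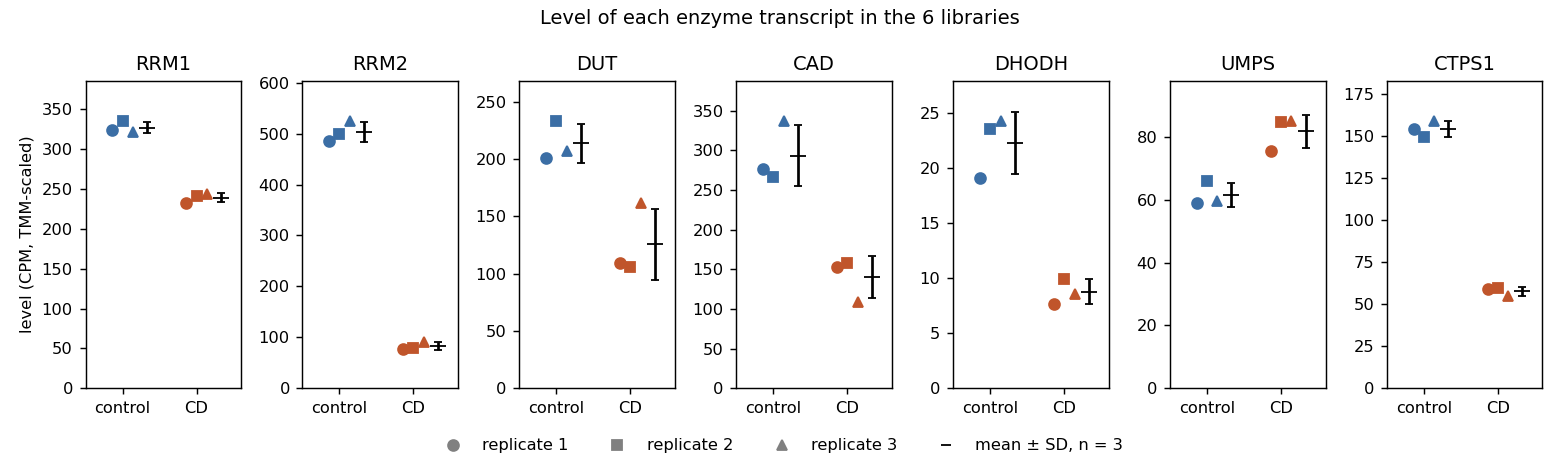
Level of the 7 enzyme transcripts found in the table, in CPM after TMM scaling on a linear axis from 0 that differs between panels, in each control (blue) and CD (orange) library, with the mean ± SD of the 3 libraries in black. RRM1, RRM2, DUT, CAD, DHODH and CTPS1 lie lower in every CD library than in every control library, and UMPS lies higher. The third CD library (triangle) stands above the other CD libraries for DUT and below them for CAD.

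Among the S-phase enzymes, RRM2 (ENSNVIG00000014985) fell most. Control replicates 1, 2 and 3 held RRM2 at 486, 499 and 525 CPM, and CD replicates 1, 2 and 3 at 77.9, 78.7 and 90.9 CPM. The highest CD library thus lay far below the lowest control library, and the mean went from 503 ± 19.7 to 82.5 ± 7.32 CPM (SD, n = 3 each). This is a log2 fold change of -2.61 ± 0.12 SE, or a 6.10-fold decrease (FDR 3.09e-07, edgeR), and only 1.01% of all tested genes had a log2 fold change as low or lower. RRM1 (ENSNVIG00000018998), which carries the catalytic site of the same enzyme, measured 324, 335 and 322 CPM in control libraries, in the same order, and 233, 242 and 244 CPM after CD. Its libraries were nearly level within each group. The log2 range was 0.06 among the control and 0.07 among the CD libraries, against a median over all tested genes of 0.24 and 0.47. The mean of RRM1 fell from 327 ± 7.18 to 239 ± 5.72 CPM, with a log2 fold change of -0.45 ± 0.10 SE (FDR 0.00429, edgeR), so that 73.1% of the control level was left, compared with 16.4% for RRM2.

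The unequal change of the subunits was followed within each library by the ratio of RRM2 to RRM1 counts, which depends on neither depth nor scaling. Its size also reflects the lengths of the transcripts, so that only its change is compared. The ratio was 1.499, 1.49 and 1.63 in control replicates 1, 2 and 3 and went down to 0.335, 0.326 and 0.373 after CD. The groups did not overlap, and the ratio was 4.47-fold lower in CD on the scale of mean log2 ratios (-2.16, exact permutation test over libraries, two-sided p = 0.1, the smallest possible, and 0.15 after adjustment over 3 ratios tested). When single libraries were omitted, the difference lay between -2.22 and -2.12.

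DUT (ENSNVIG00000019693) measured 201, 233 and 207 CPM in the control libraries and 109, 106 and 161 CPM after CD. CD replicate 3 stood above the other CD libraries and was the closest to control. Among the CD libraries its log2 range was 0.61, against a median over all tested genes of 0.47. The mean fell from 214 ± 17.1 to 125 ± 31.1 CPM, with a log2 fold change of -0.77 ± 0.17 SE (FDR 0.00376, edgeR), and without CD replicate 3 the log2 fold change was -1.02 (FDR 1.36e-11, edgeR). Omitting this library also raised the calls over all tested genes, from 3016 to 3616 higher and from 2784 to 3606 lower. The same library was also the highest of the CD libraries for RRM2, by a log2 deviation of 0.14 from the CD mean, but for RRM1 it deviated by only 0.03. This library held 9.37% unmapped reads, against 3.54% and 4.33% in the other CD libraries and 18.4%, 13.6% and 4.25% in control replicates 1, 2 and 3, and the part of these differences in the values was not tested.

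Of the enzymes linked to growth, CAD and DHODH fell and UMPS rose, all on the de novo route to UMP. CAD (ENSNVIG00000016907) measured 276, 266 and 337 CPM in the control libraries and 153, 158 and 109 CPM after CD. Control replicate 3 was high and CD replicate 3 low, yet the groups stayed apart. The mean fell from 293 ± 38.3 to 140 ± 26.9 CPM, with a log2 fold change of -1.07 ± 0.16 SE, or 2.09-fold (FDR 4.42e-04, edgeR), and with each library left out it lay between -1.19 and -0.95. DHODH (PYRD, ENSNVIG00000007278) had the fewest reads of the enzymes, 1032 over the control and 406 over the CD libraries. Its level was 19.0, 23.5 and 24.2 CPM in the control libraries and 7.68, 9.93 and 8.57 CPM after CD, and every CD value lay below the lowest control value. DHODH fell by a log2 fold change of -1.35 ± 0.18 SE (FDR 1.75e-04, edgeR).

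UMPS (ENSNVIG00000012841), the bifunctional enzyme that closes the route to UMP, was the member that rose. UMPS measured 58.9, 66.0 and 59.6 CPM in the control libraries and 75.6, 84.6 and 85.0 CPM after CD, so that the lowest CD library lay above the highest control library. The mean rose from 61.5 ± 3.93 to 81.7 ± 5.32 CPM, with a log2 fold change of 0.41 ± 0.12 SE, or 1.33-fold (FDR 0.0144, edgeR). Omitting control replicate 1 (0.38, FDR 0.0840), control replicate 3 (0.39, FDR 0.0690) or CD replicate 2 (0.36, FDR 0.0814, edgeR) ended the call.

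CTPS1 (PYRG1, ENSNVIG00000015737) was lower in every CD library. Its levels were 154, 150 and 159 CPM in the control libraries and 58.7, 59.5 and 54.6 CPM after CD, close together within each group. The mean fell from 154 ± 4.599 to 57.6 ± 2.62 CPM, with a log2 fold change of -1.42 ± 0.11 SE, or 2.67-fold (FDR 5.12e-06, edgeR). The paralog CTPS2, listed as PYRG2, had 3 reads over the control and 5 over the CD libraries, too few to be tested.

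The steps of UMP synthesis were also compared within each library. The ratio of UMPS to CAD counts was 0.213, 0.248 and 0.177 in control and 0.494, 0.535 and 0.778 in CD libraries, 2.80-fold higher in CD on the scale of mean log2 ratios (1.49). The groups did not overlap (exact permutation test, two-sided p = 0.1, adjusted 0.15), and CD replicate 3, where CAD was lowest, had the highest ratio. The difference lay between 1.29 and 1.61 with each library left out. The ratio of DHODH to CAD counts was 0.0689, 0.0884 and 0.0719 in control and 0.0502, 0.0628 and 0.0784 in CD libraries. These values overlapped, and a change was not detected (mean log2 difference -0.28, exact permutation test, two-sided p = 0.3, adjusted 0.3). The difference depended on single libraries, from -0.44 without CD replicate 3 to -0.11 without CD replicate 1, and was -0.17 without control replicate 2.

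**Figure D2:**
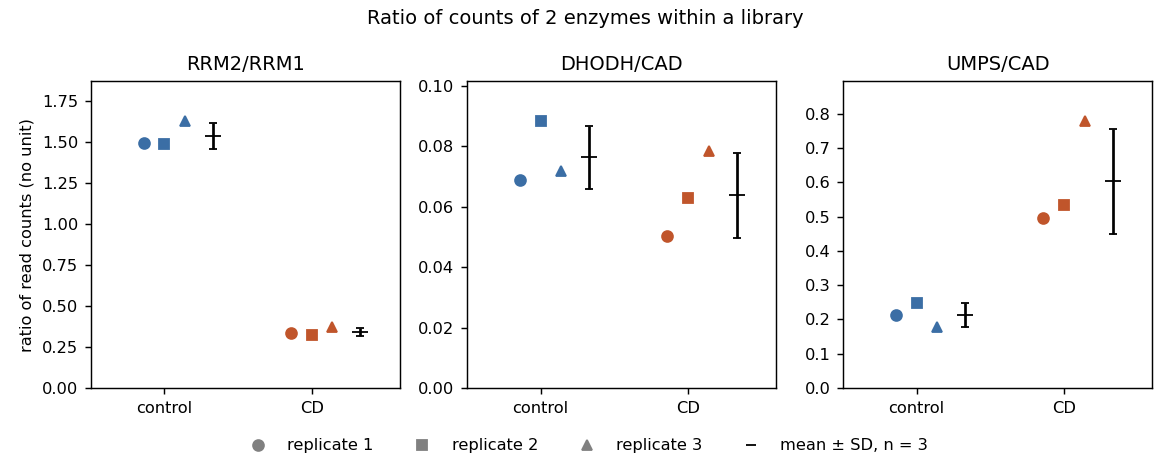
Ratio of the read counts of RRM2 to RRM1, DHODH to CAD and UMPS to CAD within each control (blue) and CD (orange) library, on linear axes from 0, with the mean ± SD of the 3 libraries in black. The CD libraries lie below the control libraries for RRM2/RRM1 (at most 0.373 against at least 1.49), above them for UMPS/CAD, and overlap with them for DHODH/CAD.

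Other enzymes of deoxynucleotide supply were taken from a list of 11 genes, of which 8 were found and tested. In CD 4 were lower, 1 was higher and 3 were not called, with a median log2 fold change of -0.16. Among all tested genes, 22.9% were called lower and 24.8% higher, with a median of 0.06. The call of DCTD, the dCMP deaminase (-0.31, FDR 0.0382, edgeR), was lost in 7 of 15 alternative settings (FDR up to 0.15), among them the replicate block and the omission of any library but CD replicate 3, which left 3 lower. DTYMK, the kinase that phosphorylates dTMP, fell from 209 ± 9.02 to 74.3 ± 14.3 CPM (SD, n = 3 each), or -1.495 ± 0.15 SE on the log2 scale (FDR 2.65e-05, edgeR). DCK, the deoxycytidine kinase of the salvage route, fell from 50.5 ± 5.08 to 11.97 ± 2.43 CPM (-2.08 ± 0.18 SE, FDR 1.20e-05, edgeR), and DCTPP1, a pyrophosphatase of dCTP, had a log2 fold change of -1.30 (FDR 1.56e-04, edgeR). The gene that rose was TK2, the thymidine kinase of mitochondria, which had 15, 17 and 33 reads in the control libraries and 57, 64 and 53 after CD (log2 fold change 1.42 ± 0.25 SE, FDR 0.00116, edgeR). DGUOK, the deoxyguanosine kinase of mitochondria, had a log2 fold change of -0.0079 ± 0.17 SE and was not called. RRM2B, the alternative small subunit of ribonucleotide reductase, was not found in the table.

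Of 12 other pyrimidine enzymes, 10 were found and 6 were tested, of which 3 were higher and 1 was lower in CD, with a median log2 fold change of 0.47. The shares among all tested genes were 24.8% higher and 22.9% lower. UPP1, the uridine phosphorylase that splits uridine into uracil and ribose 1-phosphate, measured 7.88, 6.43 and 7.82 CPM in the control libraries and 84.0, 104 and 111 CPM after CD. Each CD library lay more than an order of magnitude above each control library. UPP1 rose by a log2 fold change of 3.76 ± 0.16 SE, or 13.5-fold (FDR 2.79e-07, edgeR), at percentile 99.4 of all tested genes. CMPK1, the kinase that phosphorylates UMP and CMP, rose by 0.61 ± 0.16 SE on the log2 scale (FDR 0.00919, edgeR), a call lost without control replicate 1 (FDR 0.0528). DPYD, which starts the breakdown of uracil and thymine, was called at 0.75 (FDR 0.0370, edgeR), but its groups overlapped and the call was lost in 7 of 15 alternative settings (FDR up to 0.13), among them the omission of any control library and of CD replicate 1 or 2. UCK1, a uridine-cytidine kinase of salvage, fell by 0.55 on the log2 scale (FDR 0.00312, edgeR), whereas UCK2 was at 125 ± 4.94 and 126 ± 6.73 CPM (log2 fold change 0.02 ± 0.10 SE, FDR 0.92, edgeR).

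Purine synthesis was examined with a list of 14 genes, all found and tested. In CD 7 were lower, 0 were higher in edgeR (0 also at an unadjusted p under 0.05 and with DESeq2 or limma) and 7 were not called, with a median log2 fold change of -0.53. Over all tested genes 47.7% were called, 22.9% lower and 24.8% higher. PFAS, an enzyme of the de novo route that uses glutamine, fell from 213 ± 27.7 to 77.2 ± 17.9 CPM (SD, n = 3 each), or -1.46 ± 0.18 SE on the log2 scale (FDR 1.21e-04, edgeR). ADSL, adenylosuccinate lyase, fell by 0.87 and PRPS2, a synthetase of phosphoribosyl pyrophosphate, by 0.65 on the log2 scale (FDR 2.94e-04 and 0.00298, edgeR). Of the folate and one-carbon genes, which supply carbon units for purines and thymidylate, 5 of 9 were tested and 3 were lower. The number was 4 at an unadjusted p under 0.05 and with DESeq2 or limma. MTR, the methionine synthase, was not called in the main test (-0.79, FDR 0.0630, edgeR) but was called in 6 of 15 alternative settings. SHMT2, the serine hydroxymethyltransferase of mitochondria, fell from 477 ± 16.4 to 191 ± 16.0 CPM (-1.32, FDR 1.18e-05, edgeR), MTHFD1 from 221 ± 1.02 to 91.1 ± 10.96 CPM (-1.28, FDR 2.04e-05, edgeR), and MTHFD1L, the mitochondrial relative of MTHFD1, from 194 ± 3.78 to 143 ± 12.4 CPM (-0.44, FDR 0.00775, edgeR). SLC29A1, the equilibrative nucleoside transporter of the plasma membrane, fell from 315 ± 28.4 to 129 ± 3.55 CPM (-1.29, FDR 1.26e-05, edgeR), and SLC29A3, the other of the 2 transporters tested, was not called. Over the 5 lists of pathway genes together, 35 genes were tested, 16 were lower, 4 were higher and 15 were not called, and their median log2 fold change was -0.38. For comparison, 22.9% of all tested genes were called lower and 24.8% higher.

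**Figure D3:**
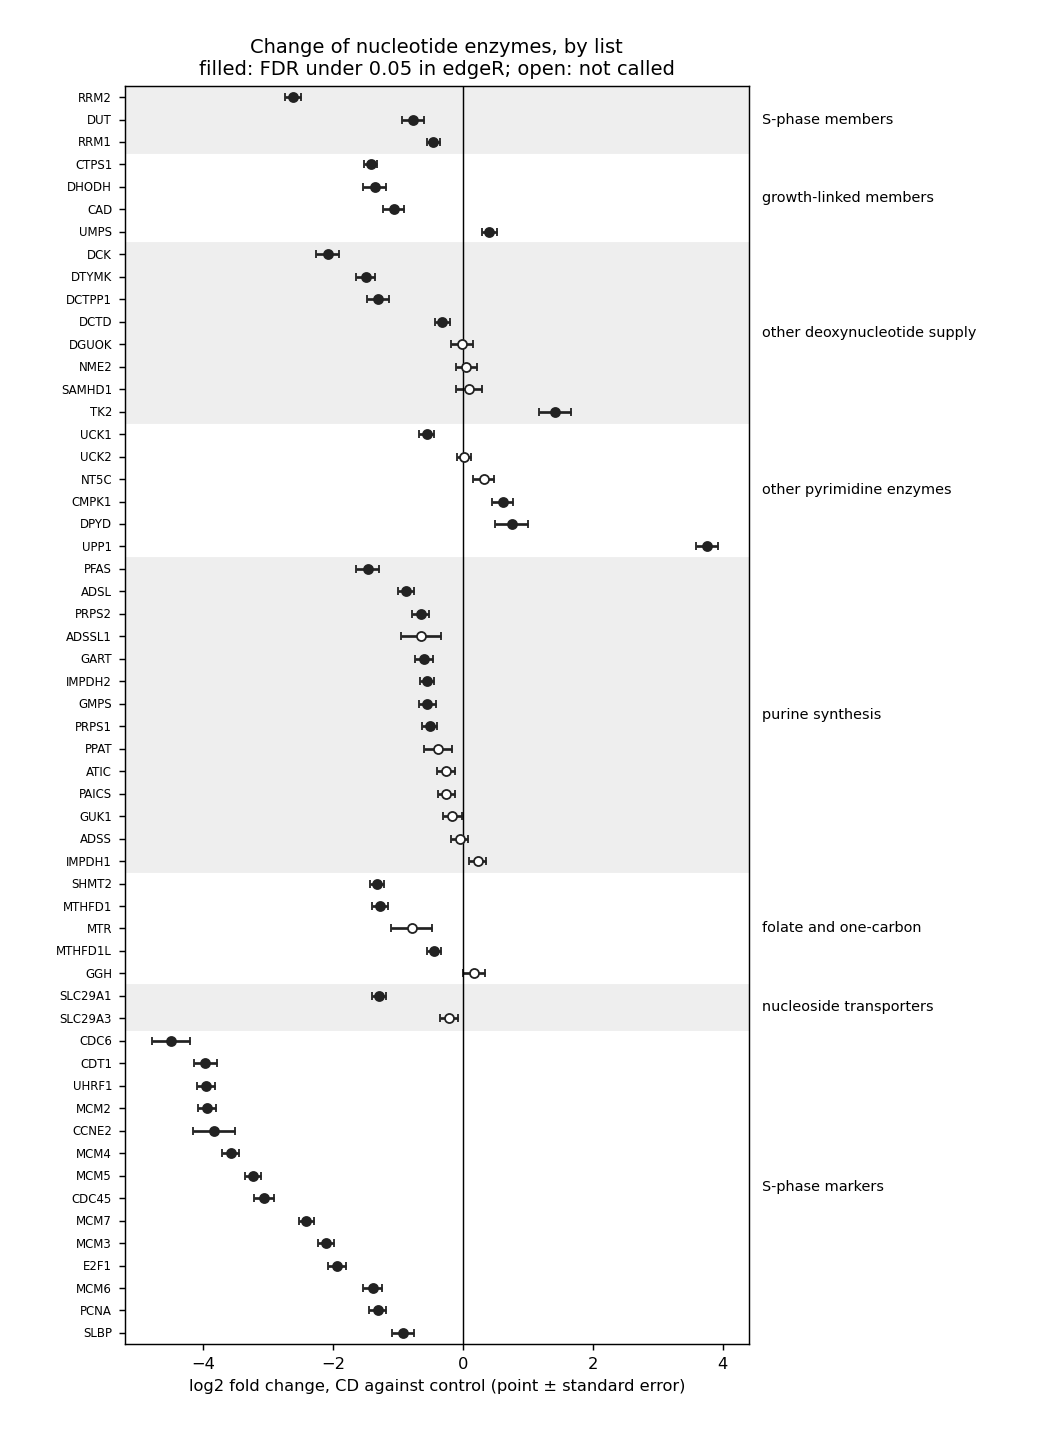
Log2 fold change of CD against control (horizontal axis) with its standard error for each tested gene, grouped by list and ordered within it, filled where the FDR was under 0.05 in edgeR and open where it was not. RRM2 (-2.61) lies lowest of the 7 enzymes and UMPS (0.41) is the one above 0, UPP1 (3.76) lies far to the right of all other genes plotted, and the S-phase markers lie between -4.49 and -0.92.

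Transcripts that mark S phase were also lower in CD. Of 16 listed markers 14 were found, and all 14 were tested and lower in CD, with a median log2 fold change of -3.15. Of all tested genes, 22.9% were called lower. CDC6 (-4.49, FDR 2.10e-06), CDT1 (-3.96, FDR 2.79e-07) and UHRF1 (-3.96, FDR 9.75e-08, all edgeR) had the lowest values, and PCNA, the sliding clamp of DNA polymerases, fell from 187 ± 17.7 to 75.6 ± 9.78 CPM (-1.31, FDR 3.40e-05, edgeR). RRM2 lay within the range of these markers, whereas the log2 fold changes of RRM1 and DUT were smaller in size than that of any of the 14, of which SLBP was the nearest to 0 at -0.92 ± 0.17 SE. Over the 15 alternative settings, DUT (-1.025 to -0.67) and SLBP (-1.09 to -0.765) overlapped, and the difference between them was not tested.

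The mean standardized log2 CPM of RRM1, RRM2 and DUT over the 6 libraries was most like the pattern of SRSF7, ACSL5, RSL1D1, CCNB2 and SPDL1, with Pearson's r from 0.9976 to 0.9991. For the mean of CAD, DHODH, UMPS and CTPS1, of which UMPS goes the other way, these were MOB3B, ITFG2, DPF1, FAXC and ANGPT4, with r from 0.992 to 0.9992. These values describe 6 points that fall into 2 groups and share their libraries. An r over 0.95 was reached by 8.85% and 6.86% of all tested genes, and ACSL5 and ITFG2 were not called between the groups (FDR 0.0823 and 0.32, edgeR).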

How the data were processed

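RNA of 3 control and 3 CD samples of Mv1Lu cells was sequenced from poly(A) libraries made with Nextera XT. According to the methods and the submitters' processing notes, reads were trimmed with fastp 0.20.1, aligned with STAR 2.7.2a to a mink assembly (NNQGG.v01) and compared with DESeq2 1.30.1 in R 4.0.3. The program that counted reads and its strand setting are not given in the sources used here, so that counts of overlapping genes are uncertain. In RefSeq's annotation of another assembly, ASM_NN_V1, RRM1, RRM2 and CTPS1 overlap 3, 1 and 1 other annotated features, and no coordinates are given. The authors deposited raw counts per gene, used here, and normalized files per library that were not used. The 4 rows that name no gene were left out.

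The main test was that of edgeR 4.0.16 (R 4.3.3), with filterByExpr (minimum count 10), TMM, robust glmQLFit and glmQLFTest, and the condition as the only term. The standard error was the log2 fold change divided by the square root of F, with a median of 0.18. The fit was tested on simulated data with the same spread in both groups and few changed genes. The data here differ in both respects, so that the simulation does not check the fit under them. Ratios were tested by exact permutation over libraries. Alternatives were DESeq2 1.42.0, limma-voom 3.58.1, 3 other scalings, 2 other filters, no robust estimation, a replicate block, the omission of single libraries, and an FDR of 0.01. The enzymes and lists, written from general knowledge, were chosen with earlier results of these data known. Named are all enzymes found, and from each list at most 3 called genes in each direction by log2 fold change plus DTYMK, CTPS2 and PCNA, with RRM2B where found. Some listed genes are not reported here and enter no count of the lists. DCTD, DGUOK, UCK2, MTR, SLC29A3 and SLBP were added after their values were seen.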

Additional observations from a re-analysis of the deposited data

How the results depend on the processing

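Of the 7 enzymes, 6 were called in the same direction under all 15 alternative settings for single genes. UMPS was called in 12, its log2 fold change lay between 0.35 and 0.47, and its FDR reached 0.0840. The number of enzymes called higher therefore went from 1 to 0 at an FDR of 0.01, with or without DHODH and CTPS1, and ranged from 0 to 1 with 1 library left out. The number lower stayed at 4, or 6 with DHODH and CTPS1, over the libraries left out. Of the other pyrimidine enzymes, 1 to 3 were higher with 1 library left out. At an FDR of 0.01, 2006 of all tested genes were higher in place of 3016, and 2036 lower in place of 2784. Of the 34 called genes of the lists, S-phase markers included, 31 kept their call in all 15 settings, DCTD, CMPK1 and DPYD being the others. The direction of the 7 enzymes and of these 34 genes was the same in all 15 settings, whereas genes that were not called could change sign, such as DGUOK (-0.22 to 0.07) and UCK2 (-0.05 to 0.05). Of the 15 list genes not called, 8 were called in no setting, and the others were called in at least 1. The number of purine synthesis genes called lower ranged from 7 to 10 with 1 library left out. The labels do not say whether equal replicate numbers pair the samples. Deviations from the group means correlated at -0.026, -0.306 and -0.18 for replicates 1, 2 and 3, and at -0.026 to 0.244 between unequal numbers. A shared replicate effect was thus not detected, but with 3 libraries per group these values cannot show that the samples were unpaired. With the replicate number as a block, 2772 genes were higher and 2636 lower, all 7 enzymes were called, and UMPS had an FDR of 0.0423. The ratios kept their direction with 1 count added to both genes and with each library left out. Ratios that need RRM2B, TK1 or TYMS could not be formed, and CTPS2 to CTPS1 was not run because CTPS2 had no read in control replicate 1.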
